A study of Mus musculus with 2 samples.

Results

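The genes described here are 10 members of the interleukin-1 (IL-1) family, its receptors and its inhibitors, out of 22910 genes that could be named on the array. They were taken as every gene probe whose transcript accession names Il1a, Il1b, Il1rn, Il18, Il33, Il1r1, Il1r2, Il1rl1, Il1rap or Il18bp, which gave 19 probes. RNA came from M-CSF cultures of bone marrow of C57BL/6 mice, labelled male. Primary macrophages were adherent cells collected at day 5, and self-renewing macrophages were the cells that went on growing after passage 4, grown out of colonies in a culture whose other cells had mostly stopped dividing. The methods state that such cells were used in bulk and not as clones unless noted, and note nothing else for the arrays. The age of the mice and their number are not given in the sources used here. Both cultures received recombinant human M-CSF at 100 ng/ml, a growth factor for macrophages. Each cell type was measured on 1 array, so no difference has a replicate check and no test was made.

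IL-1 family cytokines are alarm signals of innate immunity. A cytokine binds its own receptor chain, the shared chain encoded by Il1rap or a close relative joins, and the adaptor MyD88 passes the signal to IRAK kinases and TRAF6, which switch on NF-κB and MAP kinases. Macrophages are a major source of IL-1β and IL-18, both made as precursors that caspase-1 cuts, and the pathway is held back by a receptor antagonist, a decoy receptor and a binding protein. The study added recombinant IL-33, the ligand of the receptor encoded by Il1rl1, to self-renewing macrophages to ask whether it acts on their growth, which makes the transcripts of both of interest. The paper reports that IL-33 alone did not support this growth, but raised it slightly beside M-CSF at a suboptimal dose.

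Both arrays had the macrophage markers, with 10 of 10 well above background on each, and their summed signal was 914 times the array's 75th percentile in primary and 1196 times in self-renewing macrophages. Of these, 1 was at least 2-fold higher in self-renewing macrophages, Mertk, and 2 lower, Fcgr1 and Marco. Of 10 neutrophil markers detected, 7 were at least 2-fold lower in self-renewing macrophages, with a median log2 difference of -5.22, and their summed signal was 285 against 181 times the 75th percentile. Most of both sums came from Csf3r, at a level of 7.37 and 7.45 log2 relative to the 75th percentile, a difference of 0.08 log2, so they do not describe the markers that were lower. S100a8, S100a9, Ltf and Ngp were well above background in primary macrophages only, and Cxcr2 in self-renewing macrophages only. Sex-linked genes did not match the label of the primary culture, where 4 of 4 Y-linked genes were not well above background and Xist was. In self-renewing macrophages the reverse held, with Eif2s3y at least 157-fold higher by its brightest probe and Xist at least 38.1-fold lower. The other Eif2s3y probe gave a bound of 23.6-fold. With a model-based background correction, described below, Eif2s3y came to 4.79 and Xist to -3.04 log2. A difference between the sexes and a difference between the cell types therefore cannot be told apart in these data. In a bulk culture, fewer cells of a type and less RNA per cell cannot be told apart either.

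A gene is called detected here where the scanner software flagged its probe as well above background in either culture. Of the 10 members, 7 were detected and 3, Il1a, Il33 and Il1r1, were not. Here a difference is log2 of the background-corrected intensity relative to the array's 75th percentile, self-renewing minus primary macrophages. By the brightest probe of each gene, 1 member, Il1b, was at least 2-fold higher in self-renewing macrophages, and 2 members, Il1r2 and Il1rl1, were at least 2-fold lower. The other 4 of the 7 differed by less than 2-fold. Among all 15504 detected genes, 4.77% had a signal at least 2-fold higher in self-renewing macrophages, and for 8.37% it was at least 2-fold lower. The median of the 7 members was -0.27 log2, beside -0.02 log2 for all these genes. The values of each probe are given below by role, with the error that the scanner software estimated for the spot, which covers neither the labelling nor the culture. For bright probes this error was a nearly fixed share of the intensity, which gives 0.20 log2 for a difference, and not a measured spread. Probes with repeated spots had a median SD of 0.04 log2 on the primary array and 0.05 log2 on the self-renewing array.

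**Figure D1:**
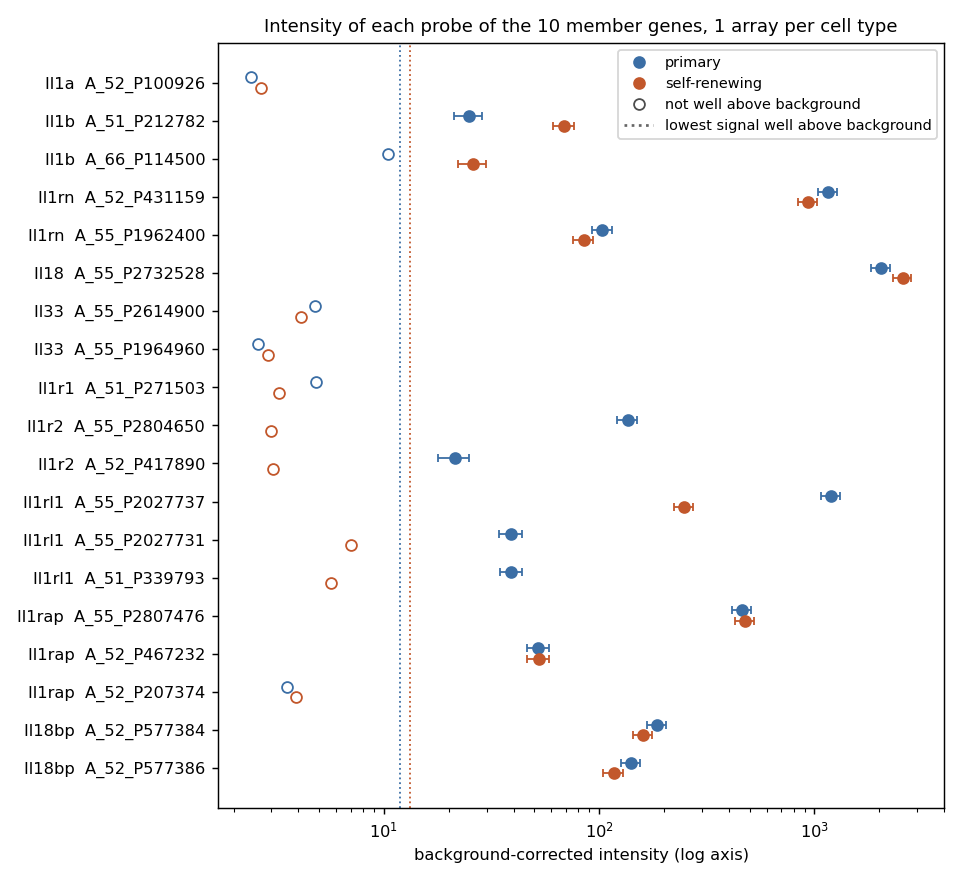
Background-corrected intensity (log axis) of each of the 19 probes in primary and self-renewing macrophages, 1 array each, before scaling between arrays. Filled points are well above background and carry the software's error bar, open points are not, and dotted lines mark the lowest intensity well above background, 11.8 and 13.2. Il1a, Il33 and Il1r1 have open points only, and the Il1r2 probes are filled in primary macrophages only.

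The agonist cytokines were Il1b and Il18 as far as they were detected. Il1b, which encodes IL-1β, gave an intensity of 24.8 ± 3.66 (software error) in primary and 68.6 ± 7.50 in self-renewing macrophages by probe A_51_P212782. Its log2 difference was 1.43, or 2.69-fold higher, with an error of 0.27 log2 from both spots. The second probe, A_66_P114500, was not well above background in primary macrophages, at 10.4, and stood at 25.9 ± 3.93 in self-renewing macrophages. It gave a bound of at least 2.13-fold higher, so both probes were higher in self-renewing macrophages. Both Il1b signals were dim, and a model-based background correction that adds an offset to all signals lowered the difference to 0.47 log2, under 2-fold. By size, this rise was number 418 from the top among the 15504 genes.

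Il18, which encodes the interferon-γ-inducing cytokine IL-18, was bright on both arrays, at 2034 ± 203 in primary and 2568 ± 257 in self-renewing macrophages. The difference was 0.30 log2, or 1.23-fold higher, with a spot error of 0.20 log2, and was measured by 1 probe. Where several probes measured 1 gene, the SD between their log2 differences was 0.32 across the array, and the Il18 difference was smaller. That SD compares probes on the same 2 arrays and does not cover variation between cultures. The authors' scaled values raise every difference by 0.19 log2. With them the Il18 difference was 0.48 log2, still under 2-fold, beside a median of 0.17 log2 for all detected genes. Il1a, which encodes IL-1α, was not well above background on either array, with intensities of 2.41 and 2.68 that were no higher than their own errors of 2.42 and 2.69. Il33 was likewise not well above background by either of its 2 probes, at 4.79 and 2.59 in primary and 4.09 and 2.90 in self-renewing macrophages. No fold change is given for these, since a gene below background on both arrays has no measured difference.

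As Il1b was the only member at least 2-fold higher in self-renewing macrophages, the 250 bases before its start site are shown. They lie on the minus strand at chr2:129371140-129371389 of GRCm38.p6, as RefSeq gives them. Capitals mark the TATA box letters TATAAA, at 31 to 26 bases before the start.
Il1b: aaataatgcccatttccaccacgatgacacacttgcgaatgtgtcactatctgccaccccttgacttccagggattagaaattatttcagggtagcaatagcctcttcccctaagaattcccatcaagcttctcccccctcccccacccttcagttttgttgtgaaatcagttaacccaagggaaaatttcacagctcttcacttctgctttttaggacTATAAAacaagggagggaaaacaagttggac
The same windows were searched on both strands for AGATAA, bound by GATA factors, for TTGCNNAA, bound by C/EBP factors, for TGANTCA, bound by AP-1, and for GAGGAA, bound by PU.1. The Il1b window held the TATA box letters alone, and no matches in the windows shown share bases. Of 32851 such windows in the RefSeq table, 12.4% held TATAAA on either strand. These letters describe the sequence and are not shown to be used.

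The receptor antagonist and the binding protein, Il1rn and Il18bp, were measured on both arrays and differed by less than 2-fold. The decoy receptor Il1r2, which was lower in self-renewing macrophages, is given with the receptors below. Il1rn encodes the IL-1 receptor antagonist, which occupies the IL-1 receptor without signalling. Its brighter probe gave 1160 ± 116 in primary and 934 ± 93.4 in self-renewing macrophages, and its dimmer probe 104 ± 10.7 and 85.0 ± 9.05. The log2 differences were -0.35 and -0.33, both larger than the spot errors of 0.20 and 0.21 and close to the SD of 0.32 between probes. Il18bp, which encodes the secreted protein that binds IL-18, gave 186 ± 18.8 against 159 ± 16.2 by 1 probe and 141 ± 14.3 against 117 ± 12.03 by the other. Its log2 differences were -0.27 and -0.31. The 2 probes of Il1rn, and likewise those of Il18bp, thus gave nearly the same value, and all 4 values lay within 2-fold. With the authors' scaled values, Il1rn stood at -0.17 and Il18bp at -0.08 log2.

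**Figure D2:**
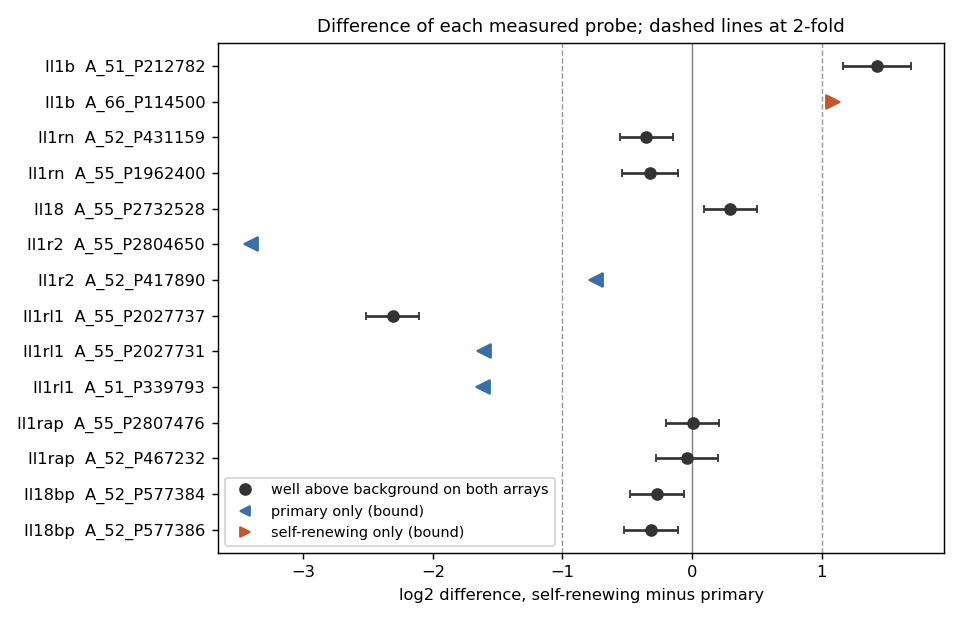
Log2 difference, self-renewing minus primary macrophages, of the 14 member probes detected in either culture. Circles are probes measured on both arrays with the error from both spots, triangles are bounds for probes measured on 1 array only, and dashed lines mark 2-fold. The Il1b probes lie to the right of the 2-fold line, and the 3 Il1rl1 probes and 1 of 2 Il1r2 probes lie to the left of it.

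The receptors held the falls. Il1rl1 encodes ST2, the receptor for IL-33, which exists as a membrane form that signals and as a secreted form that captures IL-33. Its brightest probe, A_55_P2027737, gave 1193 ± 119 in primary and 247 ± 24.9 in self-renewing macrophages, a log2 difference of -2.31 with a spot error of 0.20, or 4.96-fold lower. Both other probes were well above background in primary macrophages only. Probe A_55_P2027731, assigned to the same transcript accession NM_001025602, gave 39.0 ± 4.59 there and 7.04 in self-renewing macrophages, at least 3.05-fold lower. Probe A_51_P339793, assigned to NM_010743, gave 39.1 ± 4.68 and 5.66, at least 3.06-fold lower. All 3 probes were thus lower in self-renewing macrophages, and the gene was well above background there by its brightest probe. The positions of the probes in the transcripts are not given here, so no membrane and secreted form can be told apart. The fall was number 458 from the bottom among the 15504 genes, and it ranged from -2.33 to -1.84 log2 over the 7 other ways of processing.

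Transcription of Il1rl1 is known to start at a distal or a proximal promoter. The 250 bases before both start sites in the RefSeq table of GRCm38.p6 are shown for this reason, on the plus strand at chr1:40429320-40429569 and chr1:40439379-40439628. Capitals mark matches to the same 5 sets of letters on either strand.
Il1rl1 distal: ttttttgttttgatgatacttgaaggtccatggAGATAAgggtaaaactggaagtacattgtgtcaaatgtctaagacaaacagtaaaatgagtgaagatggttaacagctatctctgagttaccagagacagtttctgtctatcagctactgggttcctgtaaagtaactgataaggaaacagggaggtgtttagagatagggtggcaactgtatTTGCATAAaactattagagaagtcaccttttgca
Il1rl1 proximal: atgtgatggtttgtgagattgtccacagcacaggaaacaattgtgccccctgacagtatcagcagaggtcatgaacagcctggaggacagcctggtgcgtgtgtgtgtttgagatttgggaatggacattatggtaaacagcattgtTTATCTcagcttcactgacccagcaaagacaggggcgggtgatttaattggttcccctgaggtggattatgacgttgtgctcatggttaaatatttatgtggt
The distal window held AGATAA at 217 to 212 bases and the C/EBP letters at 34 to 27 bases before the start, and the proximal window held AGATAA on the opposite strand at 103 to 98 bases. AGATAA was found in 9.99% and the C/EBP letters in 9.56% of all windows. Only these exact letters were searched, so variants of them are not marked. The array does not show which start site either culture used.

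Il1r2 encodes the decoy receptor that binds IL-1 and has no signalling domain. Its brighter probe gave 135 ± 13.8 in primary macrophages and 2.98, no more than its error of 2.99, in self-renewing macrophages. It was thus at least 10.6-fold lower there. The dimmer probe gave 21.3 ± 3.50 against 3.06, a bound of at least 1.67-fold, which its low signal in primary macrophages limits. Both Il1r2 probes were well above background in primary macrophages only. With the model-based background correction the bound of the brighter probe was -1.52 log2 in place of -3.40. Il1r2 is also known as a gene of neutrophils, and 7 of their 10 detected markers were at least 2-fold lower, as given above. The part of such cells in the Il1r2 signal was not tested.

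Il1r1, which encodes the receptor that signals for IL-1α and IL-1β, was not well above background on either array, at 4.84 ± 2.91 in primary and 3.25 ± 3.26 in self-renewing macrophages by its 1 probe. Il1rap, the chain that IL-1 and IL-33 receptors share, was detected and nearly level. Its brightest probe gave 462 ± 46.2 in primary and 477 ± 47.8 in self-renewing macrophages, a difference of 0.01 log2, and a second probe gave 52.2 ± 5.99 and 52.4 ± 6.24, or -0.04 log2. Both differences were well under the spot errors of 0.20 and 0.24 log2, and the sign changed with the processing, from -0.10 log2 (model-based background correction) up to 0.19 log2 (the authors' scaled values). The remaining probe, assigned to transcript NM_001159318, was not well above background on either array. Of the IL-33 receptor pair, the ligand-binding chain Il1rl1 was therefore lower in self-renewing macrophages while the shared chain Il1rap differed by less than the spot error.

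Mast cells and basophils also carry ST2, so their markers are set beside Il1rl1. Of 11 such genes with a probe, 7 were detected and 4, Cpa3, Ms4a2, Mcpt4 and Gata2, were not. The summed signal of the list was 0.60 times the 75th percentile in primary and 0.42 times in self-renewing macrophages. Kit, Mcpt8 and Cma1 were well above background in primary macrophages only, and 2 of the 7, Kit and Hdc, were at least 2-fold lower in self-renewing macrophages. Neither was with the model-based background correction, at -0.42 and -0.40 log2. Kit, with a bound of -1.09 log2, was also under 2-fold with quantile normalization, at -0.84 log2, and with the authors' scaled values, at -0.90 log2. For T cells and innate lymphoid cells, 1 of 6 detected genes, Il7r, was at least 2-fold lower, and for stromal and endothelial cells 0 of 4. Beside these counts, 8.37% of all detected genes were at least 2-fold lower. The part of any of these cells in the Il1rl1 difference was not tested.

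Il1r2, Il1r1 and Il1rl1 lie side by side on chromosome 1 with Il1rl2, which encodes the IL-36 receptor, and with Il18r1 and Il18rap, which encode the chains of the IL-18 receptor. Of these 6 receptor genes, Il1r2, Il1rl1 and Il18rap were detected, and all 3 were at least 2-fold lower in self-renewing macrophages, as were 8.37% of all detected genes. The first 2 are members, whose values are given above, and the count is a description of few genes. Il18rap stood at an intensity of 103 ± 10.6 in primary and 18.8 ± 3.62 in self-renewing macrophages, 5.62-fold lower, a difference of -2.49 log2 that became -1.01 log2 with the model-based background correction. Il18r1 was not well above background on either array, so only 1 chain of this receptor was measured. Outside the receptors, the detected gene nearest to Il1r2 was the non-coding Gm16894, chosen after its values were seen. It was well above background in primary macrophages only, with a bound of -2.04 log2 that became -0.75 log2 with the model-based background correction. The nearest detected protein-coding genes, Map4k4 beyond it and Mfsd9 on the other side, differed by 0.01 and 0.19 log2. Il1rn and Il1b lie in separate places on chromosome 2, where the measured neighbours of Il1b, Ckap2l and Sirpa, differed by -0.63 and 0.18 log2 and Psd4, next to Il1rn, by 0.57 log2.

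**Figure D3:**
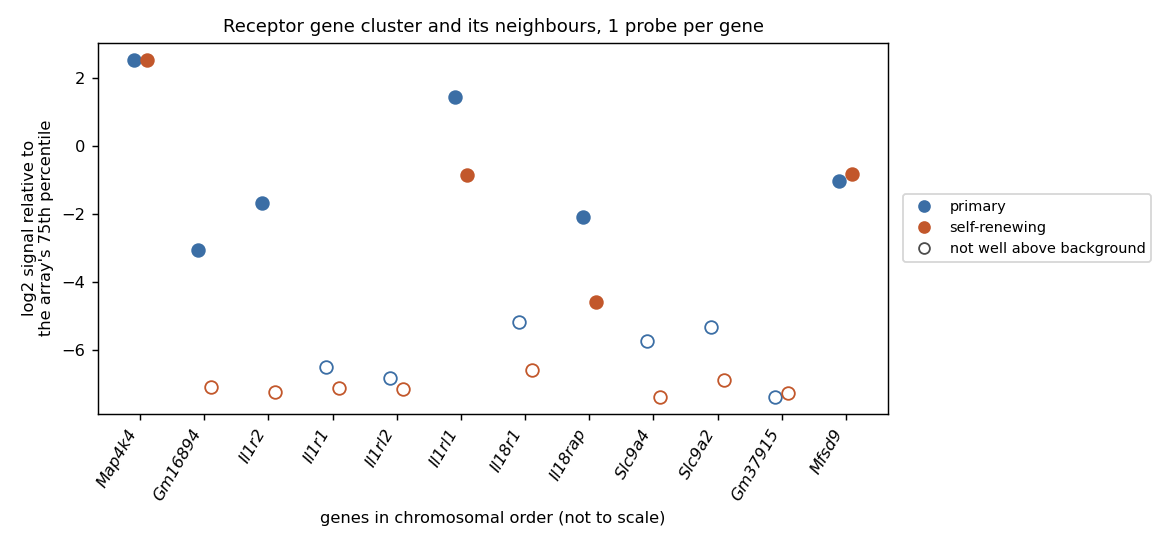
Log2 signal relative to the array's 75th percentile for genes of the receptor cluster and its neighbours in chromosomal order, with 1 probe per gene and 1 array per cell type. Filled points are well above background, and only the 2 points of a gene can be compared, since probes differ in brightness. Il1r2, Il1rl1 and Il18rap are lower in self-renewing macrophages, while Map4k4 and Mfsd9 at both ends have their points side by side.

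Among the other family members listed, all 11 had a probe and 3 were detected. These were Il18rap, Sigirr and Il1f6, which encodes IL-36α. Sigirr, an inhibitory receptor of the family, gave 457 ± 45.8 in primary and 204 ± 20.6 in self-renewing macrophages, 2.30-fold lower, or -1.20 log2, and -0.98 log2, under 2-fold, with the model-based background correction. Il1f6 differed by -0.02 log2 at a dim signal. Thus 2 of 3 were at least 2-fold lower and 0 higher, where 8.37% and 4.77% of all detected genes were.

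The signalling genes behind these receptors were mostly level. All 19 were well above background on both arrays, 17 of them differed by less than 2-fold, and the median difference was 0.13 log2. Myd88, the shared adaptor, differed by 0.16 log2, Irak4 by 0.36 log2, Irak1 by 0.16 log2 and Traf6 by -0.61 log2. Irak2 differed by 0.51 log2 by its brightest probe and by 1.05 log2, over 2-fold, with its probes averaged. With its own probes averaged, Traf6 came to -0.15 log2. Peli3, which encodes a ubiquitin ligase of the Pellino family, was 2.47-fold higher, or 1.30 log2, and 0.73 log2 with the model-based background correction. Its relative Peli2 was 2.09-fold lower by its brighter probe, but its dimmer probe gave 0.04 log2, and the brighter came to -0.52 log2 with that correction. Thus 1 of 19 was higher and 1 lower, or 5.26% each, near the 4.77% and under the 8.37% of all genes.

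The genes for processing and release of IL-1β and IL-18 were also mostly level, with 13 of 15 within 2-fold and a median of 0.14 log2. Casp1, which encodes the protease that cuts both precursors, differed by 0.14 log2, the adaptor gene Pycard by -0.17 log2, the sensor gene Nlrp3 by 0.44 log2 and Gsdmd, the pore-forming gasdermin, by 0.44 log2. The 2 genes at least 2-fold lower, or 13.3% beside 8.37% of all detected genes, were Mefv and Panx1, and 0 were higher. Mefv, which encodes the inflammasome sensor pyrin, gave 1024 ± 102 in primary and 18.9 ± 3.64 in self-renewing macrophages, 55.6-fold lower, and a second probe was 3.06-fold lower. The difference of the first was -5.80 log2, and -3.62 log2 with the model-based background correction. The part of neutrophils in the Mefv difference was not tested. Panx1, a channel for ATP, was 2.35-fold lower. Casp4, chosen after its values were seen, lay just under 2-fold, at 1.997-fold higher, and passed it with quantile normalization and with the authors' scaled values.

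Of 16 genes known to be induced by IL-1, 13 were detected. Of these, 7 were higher by 2-fold or more in self-renewing macrophages and 2 lower, where 4.77% and 8.37% of all genes were, and the median was 1.14 log2. Higher were Acod1, which encodes the enzyme that makes itaconate, at 11.6-fold, the chemokine gene Cxcl2 at 6.21-fold, Tnf at 3.13-fold, the NF-κB inhibitor gene Nfkbia at 3.09-fold, Nfkbiz at 2.55-fold and the adhesion molecule gene Icam1 at 2.21-fold. Ptgs2, which encodes a prostaglandin-forming enzyme, was well above background in self-renewing macrophages only and at least 2.79-fold higher. With the model-based background correction the count of higher genes was 5, as Icam1 came to 0.89 and Ptgs2 to 0.54 log2, and Cxcl2 moved from 2.63 to 1.86 log2. Lower were Lcn2, at 10.4-fold, and Cxcl1, at least 7.83-fold, or -2.97 log2, and well above background in primary macrophages only. With the same correction Cxcl1 came to -1.22 and Lcn2, at -3.38 log2 before it, to -2.60 log2. Lcn2 is also abundant in neutrophils. Il6, Csf2 and Csf3 were not well above background on either array. Most of these genes also respond to Toll-like receptors and to tumour necrosis factor, and neither culture was labelled as treated with IL-1, so the list is not specific to IL-1. It was also chosen with earlier results of these data known, so its counts describe the list and are no test.

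**Figure D4:**
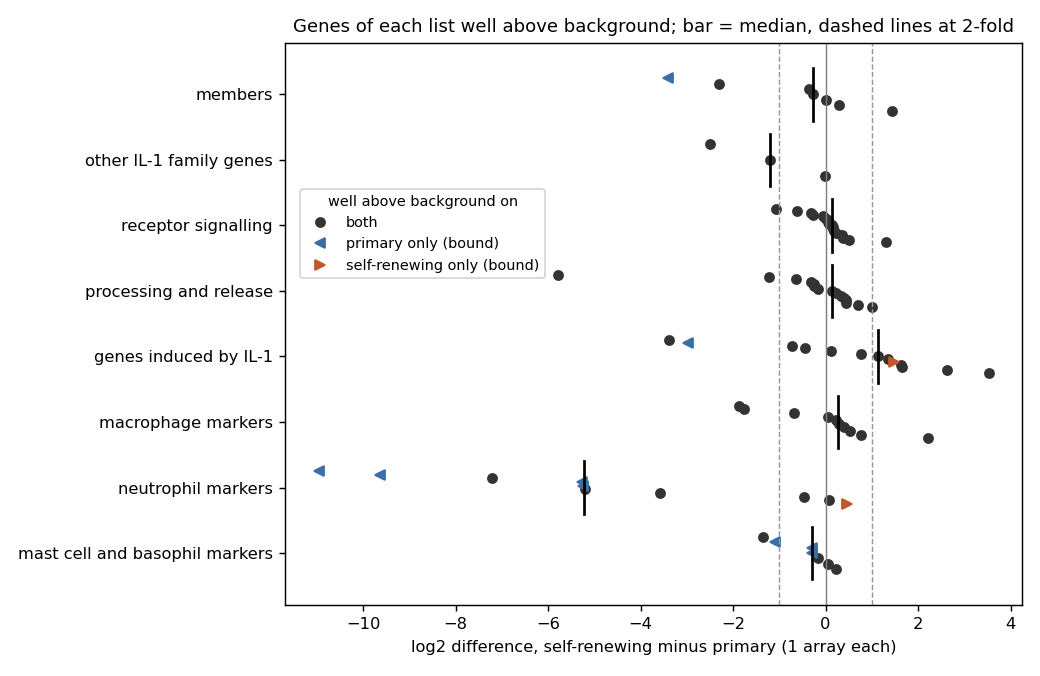
Log2 difference, self-renewing minus primary macrophages, of detected genes in the members' list, in 4 lists of the pathway and in 3 lists of cell type markers, with 1 array per cell type. Triangles are bounds, bars are medians and dashed lines mark 2-fold. The signalling and processing lists centre near 0, at 0.13 and 0.14 log2, and the genes induced by IL-1 lie mostly to the right. The neutrophil markers lie mostly to the left, with a median of -5.22 log2.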

How the data were processed

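RNA of primary and self-renewing macrophages was labelled with Cy3 and hybridised to Agilent SurePrint G3 mouse arrays, 1 per cell type. The authors deposited scanner output of Feature Extraction 11.5.1.1 with spot intensity already background-subtracted within the array and unscaled between arrays, with flags as other columns, and a table of these intensities times a constant per array, 1.07 and 1.19. How the constants were set is not given in the sources used here.

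Spots with outlier flags, 63 per array, were left out and repeated spots averaged. Intensities were put on a log2 scale after division by the 75th percentile of the gene probes of that array, 434 in primary and 446 in self-renewing macrophages. A probe well above background on 1 array has a bound, set by whichever was higher on the other array, its own signal or the dimmest signal flagged as well above background. Accessions in a table of GRCm38.p6 named 32988 of 56598 probes, 58.3%, and other probes may also read these genes but were not used. A gene was represented by its brightest probe on average over both arrays. Genes named are the members, and genes of the pathway lists that differed at least 2-fold, and any other gene, named for its role or position, was chosen after its values were seen. The members and lists were chosen with earlier results of these data known. No spot was saturated, and the arrays' number, 2 in all, limits the precision. Python 3.11.15, numpy 2.4.6, pandas 2.3.3, R 4.3.3 and limma 3.58.1 were used. Alternatives were normexp with an offset of 50 on the median spot signal, quantile normalization, another percentile base, the authors' scaled values, 2 filters on dim probes and the mean over probes.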

Additional observations from a re-analysis of the deposited data

How the results depend on the processing

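All 7 alternatives were run. Of 48 values of the 7 detected members under them, 43 moved by less than the SD of 0.32 log2 between probes of a gene, 5 moved by more and 0 changed the sign of a difference of at least 2-fold. Of 371 values of 55 genes, which are the detected members and the other detected genes named above, 41 moved by more and 0 changed sign in this way. With normexp, whose offset draws dim genes together by construction, the count of members at least 2-fold higher was 0, that of other family members at least 2-fold lower was 1, those of signalling genes were 0 higher and 0 lower, and the genes induced by IL-1 had 5 higher and a median of 0.71 log2. With quantile normalization and with the authors' scaled values, 0 signalling genes were lower and 1 processing gene, Casp4, was higher. With no filter on background, 4 other family members were lower, their median was -0.18 log2 and that of the genes induced by IL-1 was 0.46 log2. With only probes well above background on both arrays, 1 member was lower and 1 gene induced by IL-1, since Il1r2 and Cxcl1 are left out by construction. With probes of a gene averaged, 2 signalling genes were higher, Irak2 being the added one, and 0 lower. Among all genes, the share of calls that were higher was 36.3%, and 49.2% with the authors' scaled values. Normexp called 429 genes higher and 750 lower, against 739 and 1298, and the filter to probes well above background on both arrays called 782 lower. Without a filter, 1192 were higher and 2336 lower. Depth, here signal over background, limits Il1a, Il33 and Il1r1, for which no value can be given, and the dim Il1b. No paired analysis was possible because 1 array stands for each culture.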
